A study of Danio rerio with 45 samples.

Results

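Cleavage in the zebrafish (Danio rerio) embryo runs on RNA and protein left by the mother, and the 4 genes described here, ccnb1, ccnb2, fbxo5 and aurka, encode parts of the machinery that starts and times each mitosis. They were chosen by name from the rows of the deposited count table, with any trailing copy number removed. Each matched 1 row, so 4 of the 12670 genes in the table are described. B-type cyclins, the products of ccnb1 and ccnb2, bind and activate the kinase Cdk1, and the active complex drives the cell into mitosis. The anaphase-promoting complex, a ubiquitin ligase, marks these cyclins for destruction and so lets the cell leave mitosis. The product of fbxo5, also called Emi1, inhibits that ligase until it is itself degraded, and Aurora A kinase, the product of aurka, acts at centrosomes and the spindle and activates Polo-like kinase, which promotes entry into mitosis.

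RNA was sequenced from slices of whole embryos (TOMO-seq) at 1, 2 and 3 hours post fertilisation (hpf), which the labels equate with about 4, 64 and 1000 cells. Section E was the most vegetal of the 5 slices, B to D lay between, and section A was the most animal. The labels name no treatment, mutation or strain, and by the labels the groups differed only in stage and section. The 40 libraries came from 8 embryo samples, of which 1 hpf and 3 hpf had 3 each and 2 hpf had 2, and replicate 3 of 2 hpf was not analysed here. The labels call these samples biological replicates without saying how many embryos each held, so p-values reflect only how these samples vary.

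Libraries held 1466522 to 6428496 counts at 1 hpf, 1466266 to 6566549 counts at 2 hpf and 1355607 to 5398317 counts at 3 hpf. Position markers were listed with earlier results of these data known, so they describe the slices and do not test their labels. The summed level of 6 known vegetal RNAs ran from 9989 to 23924 counts per 1000000 counts (CPM) in section E. In section A it ran from 304 to 518 CPM. The sum of 3 animal RNAs ran from 268 to 376 CPM in E and from 1132 to 1426 CPM in A. Of 6 follicle cell markers 1, gsdf, could be read and reached at most 7.04 CPM, and 8 markers of maternal blood and liver were not analysed here. Markers of the embryo's own transcription were vox, klf17, her5 and irx7. Their sum reached at most 108, 141, 171 and 192 CPM in A to D and 4.69 CPM in E. Replicate 2 of 2 hpf was not uniform. In its sections A, B and E the difference from replicate 1 correlated across genes with the difference of replicate 3 from replicates 1 and 2 at 1 and 3 hpf, with r from 0.532 to 0.788, but in C and D r was 0.0272 to 0.0705. Whether libraries of this replicate were exchanged was not tested, so its section labels, and the block on its number, are taken as given. Values of D and E within 2 hpf are also given without its C and D libraries. That leaves 1 library of C and 1 of D at 2 hpf. The summed sections are also compared without the whole replicate. Group means and their order at 2 hpf include all its libraries.

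All 4 genes were well covered, with counts in each of the 40 libraries and lowest counts of 66 for fbxo5, 169 for aurka, 1105 for ccnb1 and 1115 for ccnb2. All 4 passed the filter on low counts in every comparison. Levels are CPM scaled between libraries by the trimmed mean of M-values (TMM). They compare 1 gene across libraries, not genes with each other, since they are not divided by transcript length. Each library started from the same amount of total RNA, so a level is relative to the other RNAs of its section. Less of 1 RNA and more of the others cannot be told apart, and neither cell number nor RNA per cell is measured. TMM factors were 0.855 to 0.970 in E and 1.007 to 1.041 in A. The scaling therefore raises levels in E, relative to A, above their shares of library counts.

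**Figure D1:**
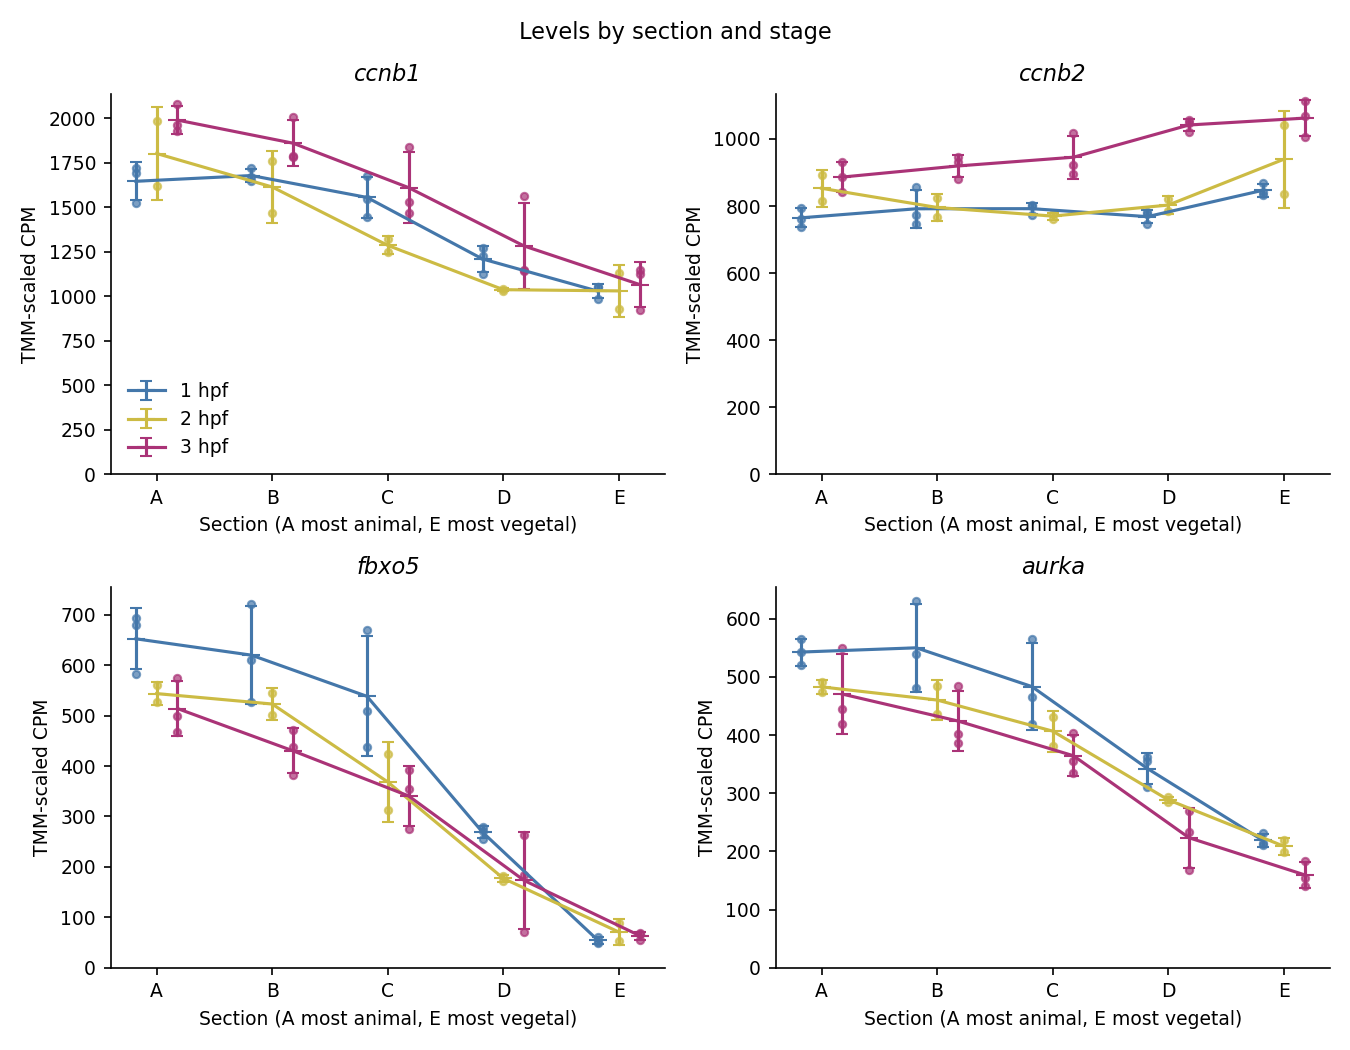
TMM-scaled CPM of ccnb1, ccnb2, fbxo5 and aurka (linear vertical axes from 0) against section A to E at 1, 2 and 3 hpf, with points for libraries, bars for mean ± SD and n = 3, 2 and 3. Mean levels of fbxo5, aurka and ccnb1 were lowest in E at each stage, narrowly so for ccnb1 at 2 hpf (1029.8 CPM in E, 1037 CPM in D), and fbxo5 differed most (49.8 to 88.7 CPM in E, 468 to 693 CPM in A), while ccnb2 stayed between 737 and 1113 CPM throughout.

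The first comparison, of section E with section A within a stage, asks where along the animal-vegetal axis the RNAs lay. The RNAs of fbxo5, aurka and ccnb1 were lower in the vegetal section at all 3 stages, by very different amounts: 7.55- to 11.8-fold for fbxo5, 2.32- to 2.96-fold for aurka and 1.60- to 1.88-fold for ccnb1. The RNA of ccnb2 did not share this gradient. Its level in E was slightly above that in A, and the difference passed the test at 3 hpf only.

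For the inhibitor gene fbxo5, the 3 libraries of section E at 1 hpf had 51.1, 49.8 and 62.0 CPM, against 680 CPM, 693 CPM and 583 CPM in section A. At 2 hpf it had 88.7 and 53.2 CPM in E and 527 and 559.9 CPM in A. At 3 hpf it had 55.1, 66.9 and 69.3 CPM in E, against 499, 575 and 468 CPM in A. In every stage the highest E library was far below the lowest A library. The log2 fold change of E over A was -3.56 ± 0.12 at 1 hpf, -2.92 ± 0.18 at 2 hpf and -3.05 ± 0.23 at 3 hpf (SE; edgeR adjusted p = 2.21e-15, 8.47e-06 and 1.48e-09). Among all genes tested, this was the 4th lowest of 12597 at 1 hpf, the 18th lowest of 12593 at 2 hpf and the 65th lowest of 12625 at 3 hpf.

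The mitotic kinase gene aurka had 210 CPM, 214 CPM and 232 CPM in E at 1 hpf, against 543, 566 and 519.8 CPM in A. It had 219.7 and 199 CPM in E at 2 hpf, against 492 and 474 CPM in A. At 3 hpf the E libraries had 141, 184 and 154 CPM and the A libraries 444, 549 and 418 CPM. The ranges of E and A were separate at each stage, and E held between 34.0% and 43.3% of the mean level of A. The log2 fold change of E over A was -1.30 ± 0.09, -1.22 ± 0.10 and -1.57 ± 0.10 at 1, 2 and 3 hpf (SE; edgeR adjusted p = 7.87e-11, 3.87e-05 and 8.88e-11).

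The cyclin gene ccnb1 had 1049.9, 1051 and 983 CPM in E at 1 hpf, against 1524, 1689.5 and 1722 CPM in A. At 2 hpf it had 927 and 1133 CPM in E and 1617 and 1985 CPM in A. It had 922, 1149 and 1125 CPM in E at 3 hpf, against 1959, 1929 and 2078 CPM in A. Here too no E library reached the lowest A library of its stage, but E kept 53.6% to 62.5% of the mean level of A. The log2 fold change was -0.68 ± 0.06 at 1 hpf, -0.82 ± 0.13 at 2 hpf and -0.91 ± 0.09 at 3 hpf (SE; edgeR adjusted p = 4.65e-09, 0.00273 and 3.44e-08).

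Its paralog ccnb2, which also encodes a B-type cyclin, had 840.4, 832 and 868 CPM in E at 1 hpf, against 737, 795 and 763 CPM in A. At 2 hpf E had 837 and 1041 CPM and A had 814 and 892 CPM, so the ranges overlapped. At 3 hpf it had 1113, 1005 and 1068 CPM in E and 885, 842 and 932 CPM in A. Values in E lay above those in A at 1 and 3 hpf, by a small margin. The log2 fold change of E over A was 0.14 ± 0.06 at 1 hpf, 0.12 ± 0.11 at 2 hpf and 0.25 ± 0.07 at 3 hpf (SE; edgeR adjusted p = 0.151, 0.605 and 0.0143). When libraries were scaled by their totals, the all-gene median of E over A shifted by -0.13, -0.15 and -0.21 at the 3 stages. The value of ccnb2 was then 0.05 at 3 hpf (edgeR adjusted p = 0.719) and -0.04 at 2 hpf, so its direction rests on the scaling. The difference at 3 hpf was also lost without replicate 1 (0.22; edgeR adjusted p = 0.119) and without replicate 2 (0.26; edgeR adjusted p = 0.128).

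Read against all genes, 6.34%, 4.87% and 7.49% were called lower in E at 1, 2 and 3 hpf, and 3 of the 4 genes were among them at each stage. At the same stages 6.76%, 5.12% and 8.1% of all genes were called higher in E, and 0, 0 and 1 of the 4. With library totals the balance of all calls turned: 13.5%, 7.96% and 18.6% of genes were then lower in E and 5.43%, 4.27% and 5.71% higher, with fbxo5, aurka and ccnb1 lower at each stage as before. Within single embryo samples, the level in A was above that in E in 8 of 8 for fbxo5 (5.95- to 13.9-fold), aurka (2.24- to 3.15-fold) and ccnb1 (1.45- to 2.12-fold). For ccnb2 it was below that in E in 8 of 8, at 0.795 to 0.972 of it, but with library totals in 5 of 8, while the other 3 genes kept 8 of 8. Without sections C and D of replicate 2, the log2 values at 2 hpf were -2.90 for fbxo5, -1.22 for aurka, -0.81 for ccnb1 and 0.12 for ccnb2.

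**Figure D2:**
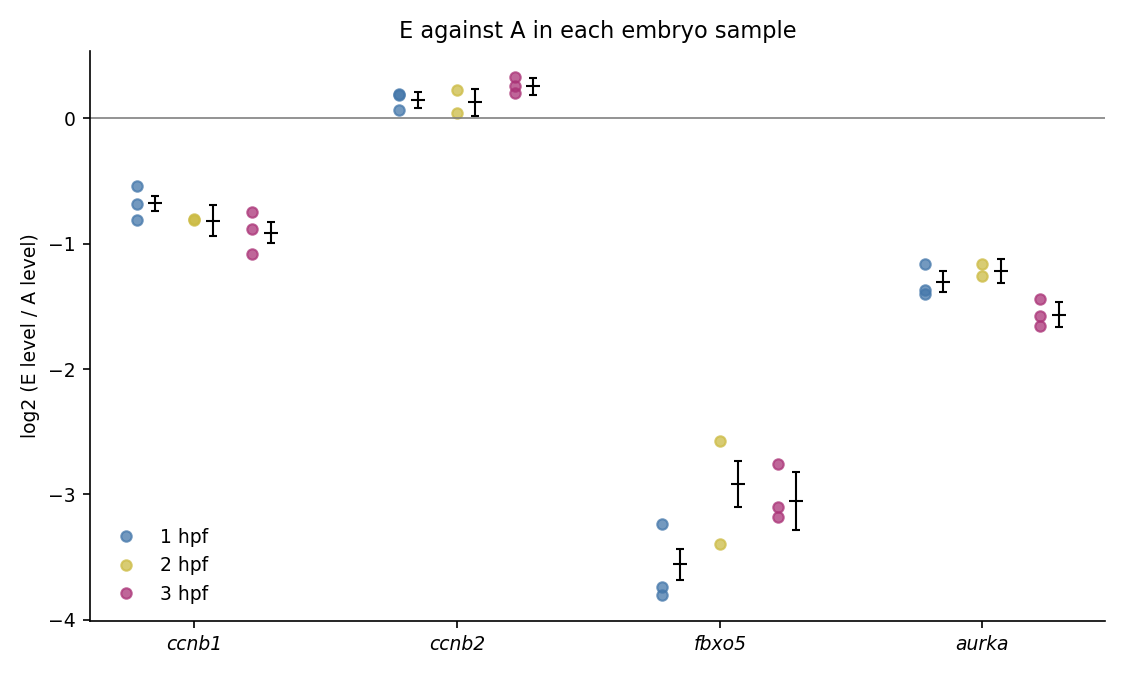
Log2 of the level in E over the level in A (vertical axis) for each of the 8 embryo samples, by gene and stage, with the edgeR estimate ± SE beside each group of points. All points of fbxo5, aurka and ccnb1 lie below 0, with fbxo5 between -3.80 and -2.57, and all points of ccnb2 lie between 0.04 and 0.33 under TMM scaling, although with library totals they span -0.09 to 0.11 and 3 of 8 lie below 0.

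Whether the 4 RNAs shared 1 gradient was tested within embryo samples, on the difference between 2 genes in log2 E over A, a measure from which library size cancels. All 6 pairs differed, each in the same direction in 8 of 8 embryo samples. The gap was -2.42 ± 0.53 for fbxo5 minus ccnb1, -3.40 ± 0.44 for fbxo5 minus ccnb2 and -1.84 ± 0.45 for fbxo5 minus aurka (SD, n = 8). It was -0.58 ± 0.19 for aurka minus ccnb1, -1.56 ± 0.25 for aurka minus ccnb2 and -0.98 ± 0.22 for ccnb1 minus ccnb2 (SD, n = 8). Each pair gave p = 0.0078125 in an exact two-sided sign-flip permutation test, the smallest that 8 samples allow and also the value adjusted over the 6 pairs. The test takes the 8 samples as independent. Summed levels of the same replicate number deviated together at 1 and 3 hpf (r across genes 0.709 to 0.911). Whether the gaps between genes did so was not tested. The order from the steepest to the flattest gradient in these 8 samples was fbxo5, aurka, ccnb1, ccnb2.

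The same contrast appears in the ratio of counts inside each library, which needs no scaling. For every 100 counts of ccnb1, section E held 5.31 ± 0.87, 7.13 ± 3.45 and 5.98 ± 0.17 counts of fbxo5 at 1, 2 and 3 hpf, and section A 39.8 ± 5.50, 30.4 ± 3.11 and 25.9 ± 3.65 (SD). For ccnb2 they were 82.5 ± 5.03, 91.1 ± 1.12 and 101 ± 17.5 counts in E, against 46.6 ± 2.08, 47.6 ± 3.82 and 44.6 ± 0.82 in A. For aurka they were 21.4 ± 1.96, 20.6 ± 4.36 and 15.02 ± 1.20 in E and 33.1 ± 2.74, 27.2 ± 4.60 and 23.8 ± 4.28 in A. The make-up of this gene set therefore differed between the ends of the embryo: relative to ccnb1, counts of ccnb2 were higher in E, while counts of the inhibitor fbxo5 were several-fold lower there. These ratios compare sections and say nothing of molecule numbers, since the transcripts differ in length.

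**Figure D3:**
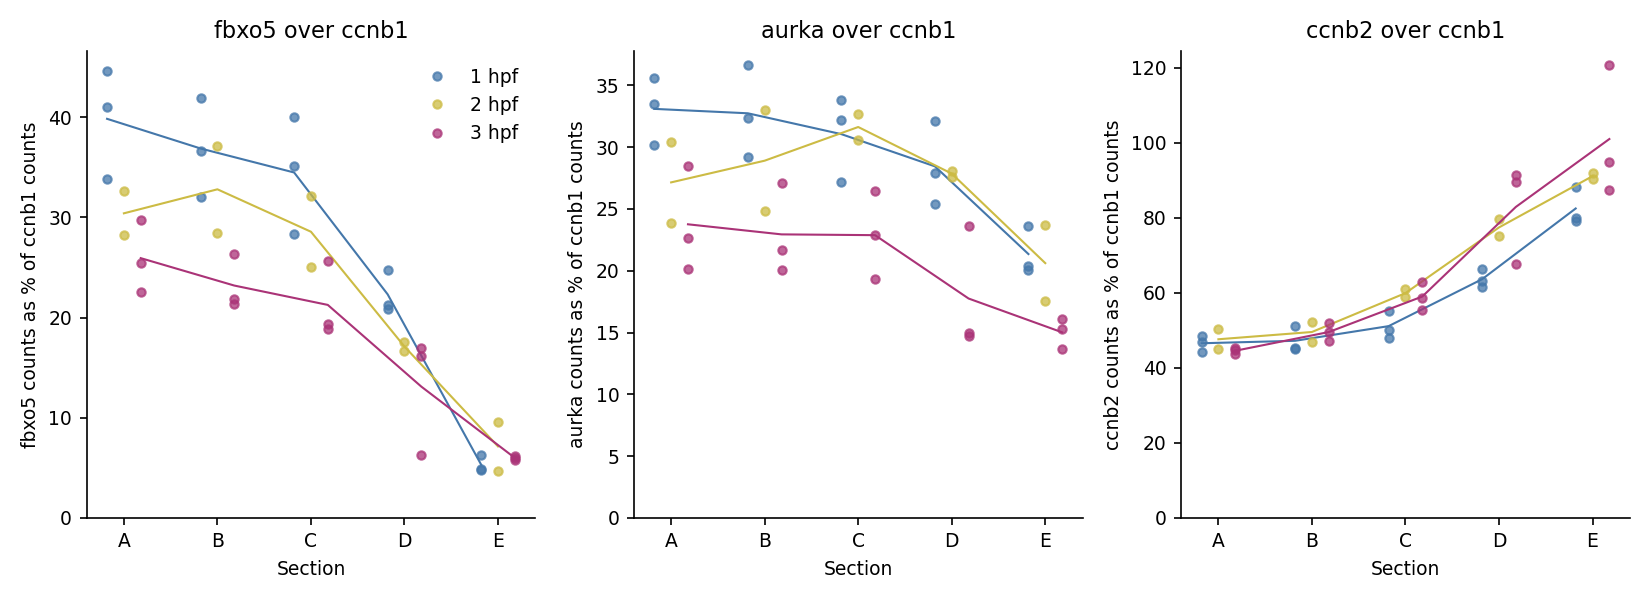
Counts of fbxo5, aurka and ccnb2 as a percentage of the ccnb1 counts of the same library (vertical axes from 0) by section and stage, with points for libraries and lines through the means. The fbxo5 ratio was 4.69 to 9.57% in E and 22.5 to 44.6% in A, and the ccnb2 ratio 79.2 to 121% in E and 43.6 to 50.3% in A.

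The course between the ends is given section by section, and its shape was not tested. In the main edgeR fits no difference of section B or section C from A was called for any of the 4 genes, and D was called lower for 3 of them. DESeq2 also called 4 differences of C, and 1 edgeR fit of all libraries called 3. At 1 hpf fbxo5 averaged 54.3 ± 6.72 CPM in E, 269 ± 11.8 CPM in D, 538 ± 119 CPM in C, 619.8 ± 97.1 CPM in B and 652 ± 60.4 CPM in A (SD, n = 3). The ranges of A and B and of B and C overlapped, and those of C, D and E were separate. The means of fbxo5, aurka and ccnb1 stood in the same order from A to E at 2 and 3 hpf, with overlaps. Those of fbxo5 at 3 hpf were 514, 430, 341, 173 and 63.8 CPM from A to E. At 2 hpf A and B overlapped for all 3, and D and E for ccnb1. At 3 hpf A and B and B and C overlapped for all 3, D and E for aurka and ccnb1, and C and D for ccnb1, so that no neighbours of ccnb1 were separate there. At 1 hpf aurka and ccnb1 had their highest mean in B, with ranges that overlapped those of A.

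Section D against A was called for fbxo5, aurka and ccnb1 at all 3 stages, which with ccnb2 at 3 hpf made 10 of 12 tests. Of all genes 3.63%, 3.89% and 6.78% were called in D against A at 1, 2 and 3 hpf, and 1.93%, 1.68% and 2.9% were called lower in D. The log2 fold changes of D over A at 1, 2 and 3 hpf were -1.28 ± 0.11, -1.63 ± 0.16 and -1.61 ± 0.20 for fbxo5, and -0.68 ± 0.08, -0.75 ± 0.09 and -1.07 ± 0.10 for aurka (SE). For ccnb1 they were -0.46 ± 0.06, -0.79 ± 0.13 and -0.64 ± 0.08 (SE). At 2 hpf without sections C and D of replicate 2, fbxo5 was -1.66, aurka -0.78 and ccnb1 -0.64. These values rest on 1 library of D, that of replicate 1. The call of ccnb2 at 3 hpf (0.24 ± 0.07 SE; edgeR adjusted p = 0.0416) was lost without any 1 of the replicates (0.21 to 0.26), without the replicate block (edgeR adjusted p = 0.141) and with library totals (0.16).

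In C against A, the main edgeR fits called 0 of 12 tests, with 8 at an unadjusted p under 0.05, and 1 edgeR fit of all libraries called 3. DESeq2 called 4, ccnb1 (-0.49) and fbxo5 (-0.60) at 2 hpf and ccnb1 (-0.31) and aurka (-0.36) at 3 hpf. Of all genes 0.0159%, 0.54% and 1.07% were called in the main fits at the 3 stages, and 0.00789%, 3.69% and 1.14% in the fit of all libraries. DESeq2 called 0.0159%, 1.44% and 1.31%. In the main fits 325, 1248 and 743 genes had an unadjusted p under 0.05. The largest values were those of fbxo5, at -0.59 ± 0.16 at 2 hpf and -0.61 ± 0.19 at 3 hpf (SE). Without sections C and D of replicate 2 the first was -0.46, from 1 library of C. Without replicate 1, fbxo5 (-0.85) and ccnb1 (-0.67) were called at 2 hpf, but that fit has only replicate 2, whose section C stood apart, and called 14.0% of all genes. Without replicate 3, fbxo5 (-0.71) and ccnb1 (-0.38) were called at 3 hpf, with 1.49% of all genes. In B against A, 0 of 12 tests were called by edgeR and by DESeq2, and 0 had an unadjusted p under 0.05. Of all genes, 0% were called by edgeR in that comparison at each stage, with 463, 335 and 150 genes at an unadjusted p under 0.05 and 0, 3 and 0 called by DESeq2.

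Between the 2 most vegetal slices, E was again below D for fbxo5 at each stage, by -2.27 ± 0.12, -1.29 ± 0.18 and -1.44 ± 0.24 at 1, 2 and 3 hpf (log2, SE; edgeR adjusted p = 2.52e-11, 0.00661 and 0.000462). For aurka the difference was -0.63 ± 0.09, -0.47 ± 0.10 and -0.49 ± 0.10 (SE; edgeR adjusted p = 1.63e-05, 0.0418 and 0.00437). For ccnb1 it was called at 1 hpf only (-0.22 ± 0.06 SE; edgeR adjusted p = 0.0149), which made 7 of 12 tests, and of all genes 2.91%, 0.191% and 2.05% were called lower in E than in D at the 3 stages. With library totals those shares were 8.52%, 0.532% and 6.15%, and ccnb1 at 3 hpf was called too (-0.40). The 1 hpf values of fbxo5 and aurka stayed called under every alternative run. At 2 hpf fbxo5 was -1.08 without section E of replicate 2, -1.05 without replicate 2 and -1.23 without its sections C and D. Each of these fits leaves 1 library of D, of E or of both. The call of aurka was lost in all of them and that of fbxo5 in all but the last. With 1 library left, a lost call says little about the gene. At 3 hpf fbxo5 was -1.40 without replicate 2 (edgeR adjusted p = 0.0506). Over all alternatives aurka lay between -0.61 and -0.42 at 2 hpf. At 3 hpf its call was lost without replicate 2 or 3, where 0.983% and 0.421% of all genes were called lower. The call of ccnb1 was lost at 1 hpf without replicate 2 or 3, where 0.985% and 1.61% of all genes were called lower. Without the replicate block, the calls of ccnb1 at 1 hpf and of aurka at 2 and 3 hpf were lost (edgeR adjusted p = 0.122, 0.115 and 0.218).

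Relative to its mean, section D at 3 hpf was the least even group for fbxo5 (SD 55.8% of the mean), with 71.6, 184 and 264 CPM in replicates 1, 2 and 3. The summed vegetal RNAs stood in the opposite order in those libraries, at 11217, 5939 and 3159 CPM, and the animal RNAs in the same order as fbxo5, at 296, 504 and 776 CPM. The animal set includes exd2, the gene most like fbxo5 in pattern (r = 0.994), so this match is partly built in. The part of such marker differences in that spread was not tested. In replicate 1 fbxo5 had 55.1 CPM in E and 71.6 CPM in D, so the gradient there was nearly complete at D.

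The study's title speaks of redistribution, and setting the gradient at one stage against that at another addresses it. For the 4 genes no shift in log2 E over A from stage to stage was called, and E over A was the only gradient compared this way. Of all genes 0.695% changed between 1 and 3 hpf, 0.0237% between 1 and 2 hpf and 0.0237% between 2 and 3 hpf. DESeq2 called 1.39%, 0.576% and 0.766%, and 1387, 1014 and 1332 genes had an unadjusted edgeR p under 0.05. Of 12 tests on the 4 genes, 0 were called by edgeR or by DESeq2 and 2 had an unadjusted edgeR p under 0.05. The difference of log2 E over A, 3 minus 1 hpf, was 0.52 ± 0.29 for fbxo5, -0.26 ± 0.13 for aurka, -0.23 ± 0.11 for ccnb1 and 0.11 ± 0.09 for ccnb2 (SE; edgeR adjusted p = 0.545, 0.47, 0.47 and 0.709). Whether D over A, C over A or E over D shifted between stages was not tested. For fbxo5, E over D was -2.27 ± 0.12 at 1 hpf and -1.44 ± 0.24 at 3 hpf (log2, SE). Its D over A was -1.28 ± 0.11 and -1.61 ± 0.20. For aurka, E over D was -0.63 ± 0.09 and -0.49 ± 0.10 at those stages. Its D over A was -0.68 ± 0.08 and -1.07 ± 0.10.

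The stages were then compared on the 5 section counts of each embryo sample added together. This asks whether levels in the embryo as a whole differed between stages. RNA left by the mother and RNA made by the embryo were not told apart. Differences were small. In these sums both cyclin genes were somewhat higher at 3 hpf than at 1 hpf and both regulator genes somewhat lower. The difference of ccnb2 alone passed the test. Such a sum weights each section by its depth and not by its RNA content, and depth differed between stages. Section E held 3487492 to 5296971 counts at 1 hpf and 1355607 to 2327972 at 3 hpf, so it weighed less in the 3 hpf sums.

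For ccnb2 the summed sections had 815, 804 and 792 CPM at 1 hpf, 807 and 844 CPM at 2 hpf and 945, 917 and 1002 CPM at 3 hpf. The 3 hpf values lay above all others. The log2 fold change of 3 over 1 hpf was 0.25 ± 0.05 (SE; edgeR adjusted p = 0.0489), or 0.0287 as the adjusted p with the replicate block. That call was lost without replicate 1 (0.27; edgeR adjusted p = 1), replicate 2 (0.29; edgeR adjusted p = 0.368) or replicate 3 (0.21; edgeR adjusted p = 0.129). For ccnb1 they had 1369, 1552 and 1477 CPM at 1 hpf, 1308 and 1489.7 CPM at 2 hpf and 1652, 1624 and 1822 CPM at 3 hpf. Again the 3 hpf values were above the others, with a log2 fold change of 3 over 1 hpf of 0.21 ± 0.07 (SE; edgeR adjusted p = 0.244).

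For fbxo5 the sums gave 405, 539 and 401 CPM at 1 hpf, 378 and 368 CPM at 2 hpf and 342, 402 and 357 CPM at 3 hpf. For aurka they gave 419, 503 and 410.4 CPM at 1 hpf, 401 and 387 CPM at 2 hpf and 354, 426 and 339.9 CPM at 3 hpf. The ranges of 1 and 3 hpf overlapped for both, and replicate 2 was the highest sample at each of those stages. Within each replicate number the 3 hpf sum was below the 1 hpf sum, in 3 of 3 pairs for both genes. How numbers 1 and 2 pair is not settled, and replicate 1 of 1 hpf (419 CPM) was below replicate 2 of 3 hpf (426 CPM) for aurka. The log2 fold change of 3 over 1 hpf was -0.29 ± 0.12 for fbxo5 and -0.25 ± 0.11 for aurka (SE; edgeR adjusted p = 0.343 and 0.350), and with the replicate block the adjusted p was 0.0989 and 0.0729. Of all genes 0.379% were called higher at 3 hpf than at 1 hpf and 1.37% were called lower, or 1.80% and 4.52% with the replicate block. Between 2 and 1 hpf 0% of all genes and 0 of the 4 were called, with 402 genes and 0 of the 4 at an unadjusted p under 0.05 and 24 genes called by DESeq2. Between 3 and 2 hpf 0.103% of all genes and 0 of the 4 were called by edgeR. Without replicate 2, 0% of all genes were called between 3 and 1 hpf, so the lack of calls there says nothing about the 4. Comparisons with 2 hpf then rest on 1 sample of that stage. DESeq2 called ccnb1 (0.30) and ccnb2 (0.23) between 3 and 2 hpf, with 3.73% of all genes.

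**Figure D4:**
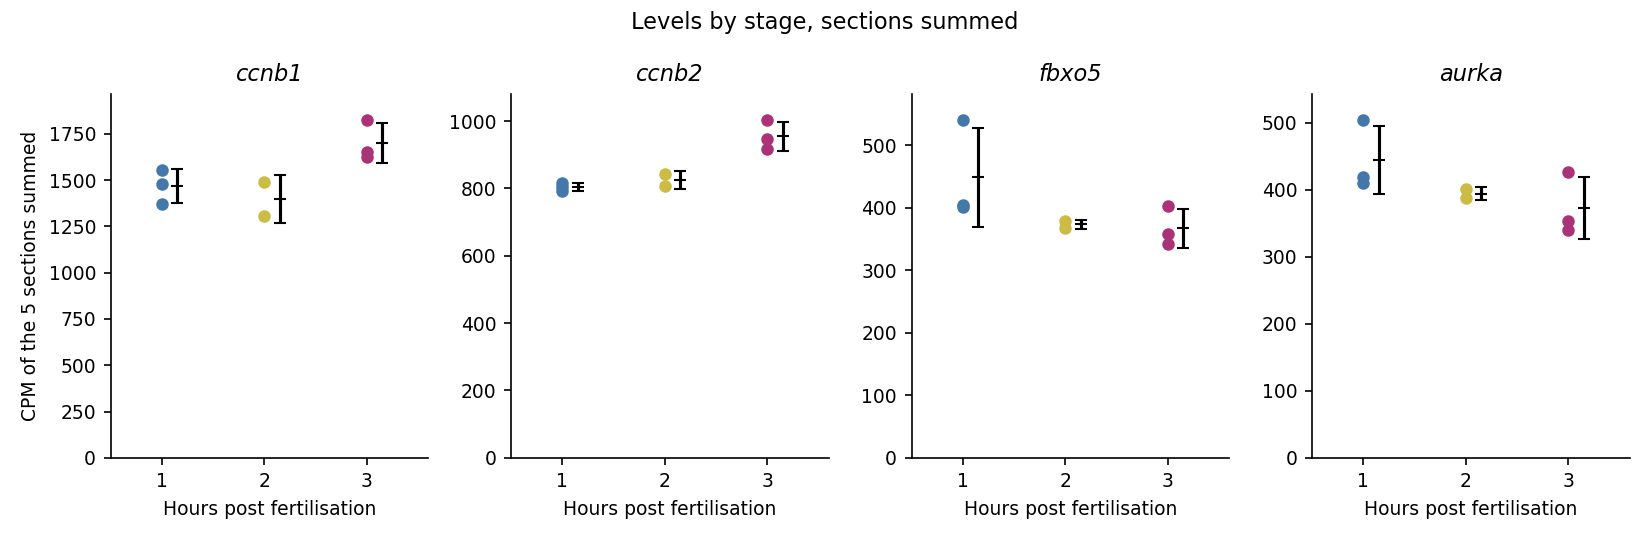
CPM of the 5 summed sections of each embryo sample (linear vertical axes from 0) at 1, 2 and 3 hpf, with points for samples and bars for mean ± SD. The 3 samples of 3 hpf lie above all others for ccnb1 (1624 to 1822 CPM) and ccnb2 (917 to 1002 CPM), while for fbxo5 and aurka the ranges at 1 and 3 hpf overlap.

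Within single sections, 3 against 1 hpf was called for 0 of 20 tests by edgeR, with 13 at an unadjusted p under 0.05 and 6 called by DESeq2. Of all genes edgeR called 0.0396% in section A, 0.0475% in B, 0.895% in C, 0.468% in D and 0.178% in E. In A to E, 918, 1181, 1790, 1612 and 1035 genes had an unadjusted edgeR p under 0.05. DESeq2 called 146, 263, 568, 475 and 225 genes there, where edgeR called 5, 6, 113, 59 and 22. The values of ccnb2 were positive in all 5 sections, at 0.22 in A, 0.22 in B, 0.26 in C, 0.45 in D and 0.32 in E (log2). Those of ccnb1 were 0.28 in A and 0.16 in B, but 0.06 ± 0.09 in C, 0.10 ± 0.13 in D and 0.04 ± 0.13 in E (SE). Those of aurka were negative in all 5, between -0.60 in D and -0.20 in A, and those of fbxo5 negative in A to D, between -0.65 in C and -0.34 in A, but 0.22 ± 0.22 in E (SE). With the replicate block, which called 7.60% of all genes in C and 3.96% in D, 5 of the 20 tests were called: ccnb2 in C and D (adjusted p = 0.0257 and 0.0278), aurka in C and D (0.0155 and 0.0354) and fbxo5 in C (0.0117). Without replicate 3, fbxo5 (-0.81) and aurka (-0.48) were called in C, with 5.05% of all genes.

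Around these 4 genes, 77 genes in 6 lists of the cyclin B network were examined, of which 66 had a row and were tested. Most showed no E-to-A difference that passed the test. At 1, 2 and 3 hpf, 4, 3 and 7 of the 66 were higher in E and 12, 5 and 10 were lower, beside 6.76%, 5.12% and 8.1% of all genes higher and 6.34%, 4.87% and 7.49% lower. The median log2 fold change of E over A for the 66 was -0.04, 0.01 and -0.07 at 1, 2 and 3 hpf, beside -0.00297, 0.02 and -0.02 for all genes tested. Of the 66, mastl, tacc3 and ccnb3_1 had values below that of ccnb1 at all 3 stages, and none was as low as fbxo5 at any stage.

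**Figure D5:**
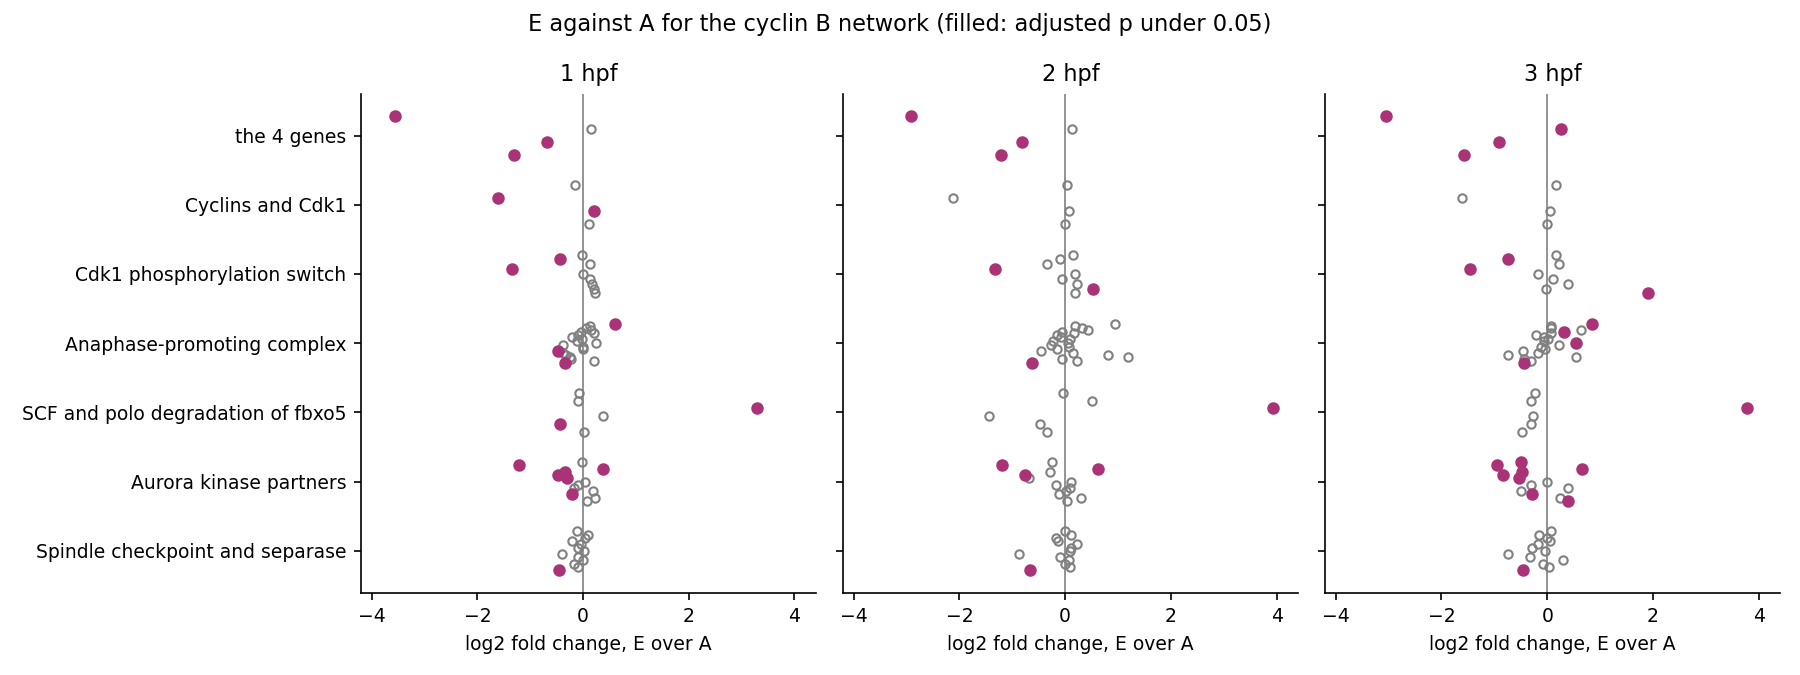
Log2 fold change of E over A (horizontal axis) for the 4 genes and 6 lists of their network at 1, 2 and 3 hpf, 1 point per gene, filled where the edgeR adjusted p was under 0.05. Most points lie near 0, fbxo5 is the lowest point of each panel (-3.56, -2.92 and -3.05) and fbxw11a the highest (3.30, 3.92 and 3.77).

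Among the genes for the degradation of the fbxo5 product, fbxw11a stood at the other end of the embryo. It encodes an F-box protein of the beta-TrCP type, which in human and Xenopus cells recognises Emi1 phosphorylated by Polo kinase and so leads to its removal. Its level was 1133 ± 147, 1600.0 ± 385 and 1347 ± 214 CPM in E, against 119 ± 36.2, 104 ± 4.78 and 101 ± 15.1 CPM in A at 1, 2 and 3 hpf (SD, n = 3, 2 and 3). The log2 fold change of E over A was 3.30 ± 0.16, 3.92 ± 0.16 and 3.77 ± 0.19 (SE; edgeR adjusted p = 6.07e-13, 6.28e-07 and 2.48e-12). Of the other 5 genes of that list with a row, cul1b, a cullin scaffold of the same ligase class, was lower in E at 1 hpf (-0.44 ± 0.09 SE) and no other member was called at any stage. The genes btrc, fbxw11b and plk1 were not analysed here.

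Among regulators of Cdk1 phosphorylation, mastl, which encodes Greatwall kinase, an enhancer of mitotic phosphorylation, had values near those of aurka. It had 118 ± 16.0, 132 ± 3.02 and 117 ± 5.47 CPM in E and 299 ± 34.3, 332 ± 28.6 and 317 ± 13.6 CPM in A at 1, 2 and 3 hpf (SD). Its log2 fold change was -1.35 ± 0.13, -1.34 ± 0.10 and -1.46 ± 0.16 (SE; edgeR adjusted p = 3.64e-08, 3.70e-05 and 3.00e-07). The inhibitory kinase gene pkmyt1 was lower in E at 1 hpf (-0.44) and 3 hpf (-0.74). In the same list arpp19b was higher in E at 2 hpf (0.53) and arpp19a_1, 1 of 2 rows of its symbol, at 3 hpf (1.90), and these genes encode phosphatase inhibitors that Greatwall acts on. The activating phosphatase gene cdc25b (0.13, -0.05 and 0.11) and the kinase gene wee2_1 (-0.01, 0.14 and 0.16) did not pass.

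Aurora kinase partners held the most calls of any list, with 5, 2 and 6 of 13 lower in E at 1, 2 and 3 hpf and 1, 1 and 2 higher, beside the 6.34%, 4.87% and 7.49% of all genes lower and 6.76%, 5.12% and 8.1% higher. The list median was -0.09, -0.12 and -0.31 at the 3 stages. The spindle gene tacc3, whose product is recruited to the spindle by Aurora A, had log2 fold changes of -1.21 ± 0.08, -1.20 ± 0.11 and -0.95 ± 0.11 (SE; edgeR adjusted p = 5.69e-11, 0.000111 and 7.28e-07). Its microtubule polymerase partner ckap5 had -0.48, -0.77 and -0.83, and the motor gene kif11 went the other way at 0.38, 0.63 and 0.66, all called. At 3 hpf kif11 was 1 of the 2 genes of this list called higher in E. The Aurora A activator gene tpx2 was lower in E at 3 hpf only (-0.50). The centrosome scaffold gene cep192 was lower at 1 and 3 hpf (-0.30 and -0.53), as were incenp (-0.35 and -0.48) and aurkb (-0.21 and -0.29), which encode parts of the chromosomal passenger complex. The row bora_1 of the cofactor of Aurora A, bora, did not pass (-0.09, -0.18 and -0.31).

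For the anaphase-promoting complex, the ligase that the fbxo5 product inhibits, 1, 0 and 3 of 21 listed genes were higher in E at 1, 2 and 3 hpf and 2, 1 and 1 lower. The shares of all genes were 6.76%, 5.12% and 8.1% higher and 6.34%, 4.87% and 7.49% lower, so these counts stand near the background. The scaffold subunit gene anapc1 was lower in E at all 3 stages (-0.35, -0.63 and -0.44) and anapc2 at 1 hpf (-0.47). The ubiquitin-conjugating enzyme gene ube2s, whose symbol has 2 rows, was higher in E at 1 and 3 hpf (0.60 and 0.84). The coactivator gene fzr1a (0.32) and the row cdc16_1 of a subunit gene (0.55) were higher in E at 3 hpf. The coactivator gene cdc20 (-0.11, -0.24 and -0.07), fzr1b (0.15, 0.43 and 0.64) and fbxo43, which encodes the related inhibitor Emi2 (0.20, 0.16 and 0.07), did not pass.

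Of the other cyclins, ccna2 was higher in E at 1 hpf (0.21 ± 0.05 SE), while ccna1 did not pass at any stage (0.11, -0.00338 and 0.00433). The row ccnb3_1 of a further B-type cyclin gene was lower in E at 1 hpf (-1.61 ± 0.35 SE), from 42 summed counts in E and 139 in A, and since ccnb3 has 2 rows its reads may be split. The gene cdk1 was not analysed here. Of 13 spindle checkpoint and separase genes, the checkpoint kinase gene bub1 was lower in E at 1, 2 and 3 hpf (-0.46, -0.66 and -0.46) and no other was called.

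For the change of E over A between 1 and 3 hpf, 0 of the 66 network genes were called, beside the 0.695% of all genes given above. In the summed sections 0 of 66 were higher at 3 hpf than at 1 hpf and 2 were lower, ube2c (-0.80 ± 0.13 SE; edgeR adjusted p = 0.0369), which encodes a ubiquitin-conjugating enzyme of the anaphase-promoting complex, and the passenger complex gene birc5a (-0.84 ± 0.13 SE; edgeR adjusted p = 0.035). The shares of all genes were 0.379% higher and 1.37% lower, so these counts stand near the background. Without replicate 1 or 2 that comparison called 0 genes. Its list medians lay between -0.16 and 0.07, beside 0.00145 for all genes.

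Other genes with the pattern of each RNA were found by Pearson's r over the 15 group means (5 sections at 3 stages) of log2(CPM + 1), among 9501 genes averaging at least 10 CPM. The points share libraries, so r is a description without a p. Most like fbxo5 were exd2 (r = 0.994), an exonuclease gene used above as an animal marker, then stx11a (0.989), the spindle pole gene cspp1 (0.987), ripor3 (0.986) and the Wnt pathway scaffold gene axin1 (0.985). Most like aurka were ppp4r1l (0.995), ripor3 (0.987), cspp1 (0.986), tmem131l (0.984) and zmiz1a (0.984). Thus ripor3 and cspp1 stood on both lists, and fbxo5 and aurka had r = 0.966 with each other.

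Most like ccnb1 were the ubiquitin ligase gene smurf1 (r = 0.973), bncr (0.971), the motor gene kifc1 (0.967), kdf1a (0.965) and atp8a1 (0.960). The pattern of ccnb1 had r = 0.871 with fbxo5 and 0.835 with aurka, but -0.18 with ccnb2. Most like ccnb2 were ttc13 (0.978), the TATA-binding protein gene tbp (0.959), the mitotic motor gene kif18a (0.942), cstf1 (0.942) and ctdspl2b (0.938). Those 5 had log2 fold changes of E over A between 0.03 and 0.32 at every stage, as flat as ccnb2 itself, whereas the 5 most like fbxo5 had -3.90 to -1.63. The directions follow from the choice of genes, since r was taken over means that include E and A. These means are TMM-scaled, and the direction of ccnb2 rests on that scaling.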

How the data were processed

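The authors deposited a table of whole-number read counts per gene and library, which was used here; normalised and summed tables made from it were not. The submitters' processing notes name build GRCz11 with STAR 2.7.11, HTSeq 2.0.4, fastp 0.23.4 and DESeq2 but give no roles; the annotation is not given in the sources used here. Per the labels' protocols, RNA was precipitated with lithium chloride and depleted of ribosomal RNA, and directional libraries were made, so RNA lost in either step is not measured. No row has fewer than 60 counts over the 40 libraries. Symbols stand as deposited, and a symbol with several rows entered a list by its row with the highest mean count, so its reads may be split.

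The test was the quasi-likelihood test of edgeR 4.0.16 in R 4.3.3, after the low-count filter filterByExpr and TMM scaling; p-values were adjusted over all genes by Benjamini-Hochberg and called under 0.05. The SE given with an edgeR value was derived from that test, as the absolute log2 fold change over the square root of its F statistic. Fits within a stage blocked on replicate number, since the labels make the sections of 1 number 1 biological replicate. The E-to-A change between stages came from 1 fit of the 40 libraries that blocked on embryo sample, and stages were compared with no block. For 3 against 1 hpf the numbers were checked: sums of the same number deviated together from their stage means (r across genes 0.73, 0.709 and 0.911). Numbers 1 and 2 were as close when crossed (0.724 and 0.748). The check therefore sets number 3 apart from the others but cannot tell how numbers 1 and 2 pair, and the labels do not say. Replicate 2 of 2 hpf went against its number (-0.675 and -0.676). Replicates of the same group differed by more than counting noise in all 35 pairs (chi-square per degree of freedom 3.45 to 17.5). Gene pairs were compared within embryo samples with a pseudocount of 0.5. The test steps were checked on simulated data.

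The 4 genes, the lists, the markers, the tests and the alternatives were chosen with earlier results of these data known. Named were the 4 genes, a fixed set of network genes, up to 4 further called members of each list with the largest E-to-A change, and the 5 genes most like each of the 4 in pattern. Named beyond that rule were incenp and, for their calls in the summed sections, ube2c and birc5a. Alternatives were other size factors (RLE), library totals, no filter, DESeq2 1.42.0, no or an added replicate block, 1 fit of all libraries, equal weights for sections (limma 3.58.1) and left-out replicates or libraries.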

Additional observations from a re-analysis of the deposited data

How the results depend on the processing

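For the E-to-A differences, their change between 1 and 3 hpf, the summed 3 to 1 hpf comparison and the gene pairs, 218 values under an alternative were alike, 6 lost their call and 2 turned direction, the last 8 all of ccnb2. Alike means the same direction and side of the threshold, except for gene pairs without replicate 1 or 2. Those were not tested and count as alike where the mean moved by less than the SD. With library totals ccnb2 in E against A was -0.0358 at 2 hpf and 0.0452 at 3 hpf. Over left-out replicates or libraries it lay between -0.00909 and 0.212 at 2 hpf and between 0.22 and 0.282 at 3 hpf, and its summed 3 to 1 hpf change between 0.206 and 0.286. The cause was not tested. The gene pairs kept their direction without any 1 replicate, but without replicate 1 or 2 the 5 samples left allow no exact p below 0.0625. Left-out fits at 2 hpf have 1 embryo sample, assumed to vary like those of the other stages.

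Of the other values of the 4 genes, 715 were alike, 29 gained and 19 lost a call and 21 turned direction. With library totals the share of lower calls among all calls in E against A was 71.3%, 65.1% and 76.5% at 1, 2 and 3 hpf (48.4%, 48.7% and 48.04% as reported), in E against D 68.3%, 28.4% and 68.6% (36.2%, 9.06% and 36.02%), in D against A at 3 hpf 54.9% (42.8%), in C against A at 2 hpf 34.7% (50%) and in the E-to-A change between 1 and 3 hpf 70.2% (53.4%). In that scaling ccnb2 in E against D at 3 hpf was -0.116 and ccnb1 at 3 against 1 hpf in section E -0.0356. In 1 fit of all libraries ccnb2 in D against A at 1 hpf was 0.00552. Over left-out replicates or libraries, B against A at 1 hpf lay between -0.023 and 0.0783 for ccnb1, -0.0362 and 0.0936 for ccnb2 and -0.0592 and 0.0772 for aurka. B against A for fbxo5 at 2 hpf lay between -0.163 and 0.0344, and D against A for ccnb2 at 1 hpf between -0.0411 and 0.00656. E against D lay between -0.176 and 0.132 for ccnb1 at 2 hpf and between -0.0176 and 0.0437 for ccnb2 at 3 hpf. The change of E over A lay between -0.15 and 0.091 for ccnb2, 2 minus 1 hpf, and between -0.443 and 0.46 for fbxo5, 3 minus 2 hpf. The summed 3 to 2 hpf change of fbxo5 lay between -0.103 and 0.0458. For 3 against 1 hpf ccnb1 lay between -0.0592 and 0.146 in C, -0.0525 and 0.212 in D and -0.0263 and 0.154 in E.

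With the replicate block fbxo5 in the summed 3 against 2 hpf comparison was 0.0167, and in the summed 3 against 1 hpf comparison 800 of all genes were called in place of 221. Sums of 2 hpf do not pair by number, and with the block 56 genes were called between 2 and 1 hpf in place of 0 and 575 between 3 and 2 hpf in place of 13, where fbxo5 (-0.30) and aurka (-0.22) at 2 against 1 hpf had an unadjusted edgeR p of 0.0172 and 0.0245. Other calls that the block changed stand beside their results. Over all alternatives, E-to-A calls among all genes numbered 980 to 2383 at 1 hpf (1650 as reported), 742 to 1836 at 2 hpf (1258) and 1161 to 3067 at 3 hpf (1969), and summed 3 to 1 hpf calls 0 to 906, with 0 without replicate 1 or 2. The lowest counts, 66 for fbxo5 and 169 for aurka, limit precision in section E most.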
